A study of Mus musculus with 12 samples.

Results

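The heat shock proteins and co-chaperones described here are 10 genes of the 14244 in the table: Hspa1a, Hspa1b, Hspa8, Hsph1, Dnajb1, Dnaja1, Hsp90aa1, Hspb1, Hspd1 and Hspe1. They were chosen by symbol after Hspa1a and Hspa1b had been seen to differ between the genotypes in these same libraries. The difference between genotypes is therefore given below as a description of the members, without a test. Of the 10 members, 9 reached the mean of 10 normalized counts that the comparison across all genes required, and Hspb1 did not.

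RNA was sequenced from gut epithelial cells of male C57BL/6 littermates, aged 8 weeks, of which 5 were wild type (WT) and 7 were Chd8L+/-. Chd8L+/- mice carry in the germline 1 allele of Chd8, a chromatin remodeler gene, that lacks internal exons needed for the long protein isoform; both genotypes came from crosses of Chd8L+/- males with WT females, and each library is 1 mouse. The deletion is in every cell of these mice, so the comparison is not limited to the gut epithelium. A normalized count is the number of reads on a gene divided by the size factor of its library.

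Heat shock proteins are chaperones, which hold or refold other proteins. Proteins of the HSP70 family bind unfolded clients in a cycle of ATP hydrolysis that J proteins start and nucleotide exchange factors end, HSP90 acts on clients that are nearer to their folded form, small heat shock proteins hold unfolded clients without ATP, and a chaperonin ring with its lid folds proteins inside mitochondria. Many of these genes are switched on by heat shock factor 1 (Hsf1) through heat shock elements, repeats of a short unit in alternating directions, when unfolded proteins build up. In gut epithelium the inducible HSP70 genes are known to respond to heat, microbial products and handling of the tissue.

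The inducible HSP70 proteins are encoded by Hspa1a and Hspa1b, neighbouring genes without introns on the minus strand of chromosome 17 (GRCm38, 34969190 to 34972156 and 34956436 to 34959238). The 250 bases before their start sites are shown because these genes carried the largest differences among the members. The sequences are nearly the same, but they lie outside the transcripts and do not bear on how reads are placed. They are chr17:34972157-34972406 for Hspa1a and chr17:34959239-34959488 for Hspa1b, minus strand, from RefSeq on GRCm38.p6. Capitals mark an inverted pair of heat shock element units, GAANNTTC.
Hspa1a: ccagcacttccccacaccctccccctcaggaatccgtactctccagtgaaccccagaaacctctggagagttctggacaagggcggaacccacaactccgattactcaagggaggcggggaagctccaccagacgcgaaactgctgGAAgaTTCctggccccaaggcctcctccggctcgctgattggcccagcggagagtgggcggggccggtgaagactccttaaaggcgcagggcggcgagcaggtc
Hspa1b: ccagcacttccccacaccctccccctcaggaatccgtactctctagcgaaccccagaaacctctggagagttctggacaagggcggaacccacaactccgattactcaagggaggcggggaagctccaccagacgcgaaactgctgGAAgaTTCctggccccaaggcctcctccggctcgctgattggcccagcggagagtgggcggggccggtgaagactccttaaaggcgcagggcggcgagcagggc
Over the 250 positions, the sequences differed at 3, which lie 207, 204 and 2 bases before the start. The pair in capitals begins 104 bases before the start in both genes.

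Of the 10 members, 8 had a RefSeq promoter, and 7 of these 8 held in at least 1 promoter a pair of units, either GAANNTTC or TTCNNGAA, both of which read the same on the other strand. A pair was found in 12.8% of all 32851 promoters and in at least 1 promoter of 14.5% of all 27025 genes that have one. The 8 members had 13 promoters, of which 8 held a pair. Dnajb1 had 0 pairs in these windows. A run of 3 units, GAANNTTCNNGAA or TTCNNGAANNTTC, which overlaps the pairs, was found in 0.466% of all promoters and in those of 2 members, Hspd1 and Hspe1. These genes lie head to head, and the run is the same stretch of chromosome 1, chr1:55088053-55088082, read from each strand. The 30 bases around the elements are shown for the members outside the HSP70 family in which a pair was found, with the matching units in capitals. The stretch of Hsph1 is chr5:149636351-149636380 on the minus strand, that of Dnaja1 is chr4:40722333-40722362 on the plus strand, and that of Hspb1, which had 2 pairs, is chr5:135887811-135887840 on the plus strand around the pair nearer to the start.
Hsph1: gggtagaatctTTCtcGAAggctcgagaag
Dnaja1: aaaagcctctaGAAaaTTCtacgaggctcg
Hspb1: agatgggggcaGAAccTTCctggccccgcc
Hspd1: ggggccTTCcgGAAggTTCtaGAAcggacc
Hspe1: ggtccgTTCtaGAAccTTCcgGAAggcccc
These matches describe the letters of the sequence only, and binding was not measured in these samples.

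The libraries held 15691662 to 20761315 reads on genes, as recovered from the deposited values. Chd8, the targeted gene, averaged 953 ± 85.5 normalized counts (SD, n = 5) over the WT libraries and 1297 ± 123 (SD, n = 7) over the Chd8L+/- libraries, with every Chd8L+/- library above every WT library. As the count covers the entire gene, it does not show the deleted exons and does not check the labels. All 8 epithelial markers were present, and their summed normalized count was between 167480.0 and 296769 in WT and between 161862 and 289413 in Chd8L+/- libraries. On the first principal component, which held 39.7% of the variance, WT replicate 2 lay at 41.0, within the Chd8L+/- range of 0.26 to 42.7, while the remaining 4 WT libraries were at -67.5 to -26.2. Results that rest on WT replicate 2 are given with and without it.

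Hspa1a, which encodes a stress-inducible HSP70, had 498, 830.0, 194, 281 and 252 normalized counts in WT replicates 1 to 5. In the 7 Chd8L+/- libraries it was between 52.8 and 108, with a median of 77.5. The groups did not overlap, WT replicate 2 was the highest of the WT libraries and WT replicate 1 the next. The WT mean of 411 ± 261 (SD, n = 5) stood against a Chd8L+/- mean of 79.9 ± 21.6 (SD, n = 7), a log2 fold change (Chd8L+/- over WT, on log2(normalized count + 1)) of -2.18 with a standard error of 0.32. Without WT replicate 2 the log2 fold change was -1.88.

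Hspa1b, which encodes the same kind of HSP70 from the neighbouring copy, had 804, 1270.4, 316, 450.3 and 390.0 normalized counts in WT replicates 1 to 5. In Chd8L+/- libraries it was between 90.1 and 194, with a median of 120.4. As for Hspa1a, the groups did not overlap and WT replicates 2 and 1 were the highest. Its WT mean was 646 ± 396 (SD, n = 5) and its Chd8L+/- mean 133 ± 37.7 (SD, n = 7), and the log2 fold change was -2.13 with a standard error of 0.31, or -1.83 without WT replicate 2.

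Reads of the inducible HSP70 genes can be hard to place, since 52.7% of the 75-base stretches of the Hspa1a transcript also occur in Hspa1b and 55.8% of those of Hspa1b occur in Hspa1a. Gm20481 overlaps Hspa1a on the opposite strand, and the use of strand in the counting is not given in the sources used here. The sum of both genes is less affected by such a split. It was 1302, 2100.4, 509, 731 and 642 normalized counts in WT replicates 1 to 5, and between 143 and 302, with a median of 198, in Chd8L+/- libraries. The lowest WT library lay above the highest Chd8L+/- library. The log2 fold change of the sum was -2.15 with a standard error of 0.36, or 4.45-fold higher in WT, and -1.85 without WT replicate 2. The ratio of Hspa1b to Hspa1a varied little, from 1.53 to 1.81 over the 12 libraries, while Hspa1a spanned 15.7-fold and Hspa1b 14.1-fold between the highest and the lowest library.

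**Figure D1:**
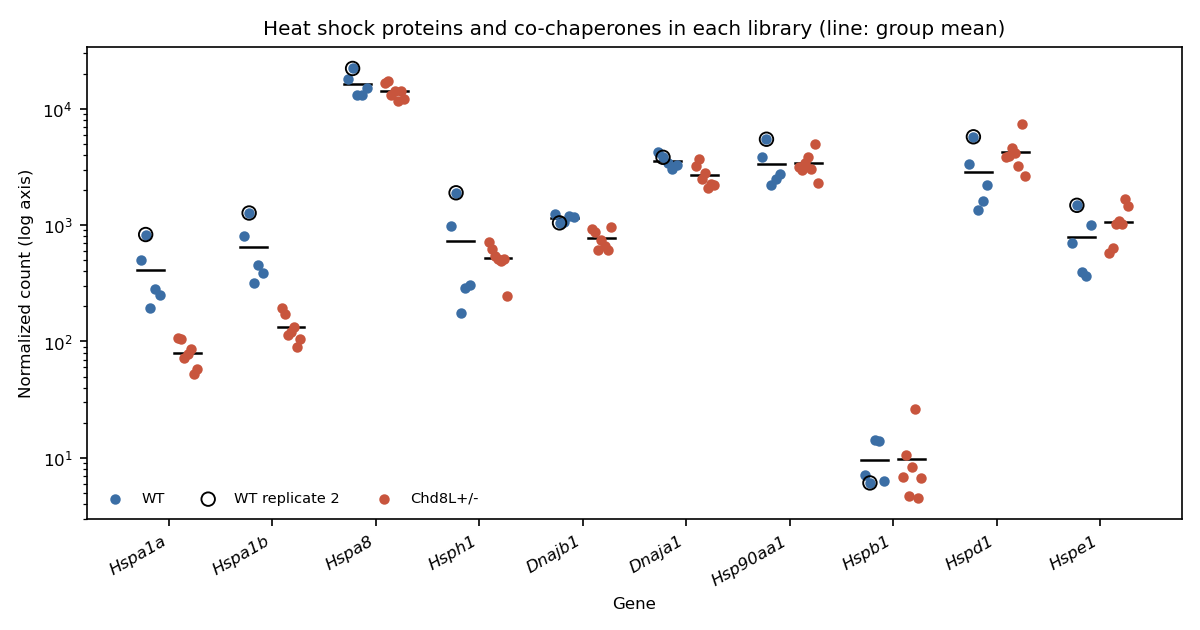
Normalized counts (log axis) of the 10 members, with 1 point per library in replicate order from left to right, WT in blue and Chd8L+/- in red, lines at group means and a ring around WT replicate 2. All 7 Chd8L+/- points lie below all 5 WT points for Hspa1a, Hspa1b and Dnajb1, and the groups overlap for the other 7 members.

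Across all 12808 genes tested, limma with Benjamini-Hochberg adjustment called 3 genes (0.0234%), and Hspa1a and Hspa1b were 2 of them. Of the 10 members, 3 had groups that did not overlap and were lower in Chd8L+/- libraries, against 0.273% of all genes tested. As these members were chosen from this contrast, nothing is read from either count. Without WT replicate 2, limma called 3533 genes (27.6%), among them 4 members: Hspa1a, Hspa1b and Dnajb1, lower in Chd8L+/- libraries, and Hspd1, higher. By other tools and models, 2 members were called by edgeR (0.039% of all genes), 3 by DESeq2 (6.41%), 3 by limma with the letter of the library name as a block (3.52%), and 4 each by edgeR (26.3%) and DESeq2 (31.8%) without WT replicate 2. With the replicate number or the library number as a block, or after removal of trends with gene length and GC content, limma called 0 genes and 0 members, while the log2 fold change of Hspa1a was -1.99, -1.90 and -2.18. With any 1 of WT replicates 1, 4 and 5 or Chd8L+/- replicates 1, 2, 3, 4, 5 and 7 left out instead, 0 members were called by limma (4 or 5 at an unadjusted p of 0.05 or less, a share that was 15.2% to 25.8% over all genes), and the log2 fold change of Hspa1a stayed between -2.40 and -1.88 over all libraries left out in turn. In RNA from whole cell preparations, fewer cells of a type and less RNA per cell cannot be told apart.

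Hspa8, the constitutive HSP70 of the cytosol, was the most abundant member. It had 18115, 22187, 13161, 13210.4 and 15056 normalized counts in WT replicates 1 to 5 and between 11618 and 17217, with a median of 14119.7, in Chd8L+/- libraries. The groups overlapped, and only 2 of the 7 Chd8L+/- libraries lay below all WT libraries. Its log2 fold change was -0.19 with a standard error of 0.18, -0.07 without WT replicate 2 and 0.09 after quantile normalization, so that its sign depended on the scaling. The ratio of constitutive Hspa8 to the sum of Hspa1a and Hspa1b was between 10.6 and 25.8 in WT and between 53.1 and 98.8 in Chd8L+/- libraries, without overlap. The groups of that sum do not overlap by themselves, while Hspa8 spanned 1.91-fold over the 12 libraries. The ratio therefore restates the difference of the sum. In the Hspa8 transcript, 68.6% of 75-base stretches occur in other annotated genes, most of them in the pseudogene Gm15459.

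Hsph1 encodes HSP110, a nucleotide exchange factor of HSP70 and itself heat-inducible. Its normalized counts were 982, 1895, 174, 291 and 303 in WT replicates 1 to 5 and between 245 and 723, with a median of 511, in Chd8L+/- libraries. The Chd8L+/- libraries lay inside the WT range, which spanned 10.9-fold, with WT replicates 2 and 1 above all 7 Chd8L+/- libraries and the other 3 WT libraries below at least 6 of them. The mean was higher in WT, 729 ± 726 (SD, n = 5) against 520.4 ± 147 (SD, n = 7), while the log2 fold change was 0.02 with a standard error of 0.49, and 0.51 without WT replicate 2. Relative to the sum of Hspa1a and Hspa1b, Hsph1 was between 0.343 and 0.902 in WT and between 1.51 and 3.57 in Chd8L+/- libraries. These ranges do not overlap, but neither do those of the sum by which Hsph1 was divided, so nothing further is read from them. Hsph1 thus shared with Hspa1a and Hspa1b the order of the WT libraries at the top, but not the low level of the Chd8L+/- libraries.

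Dnajb1 encodes the J protein HSP40, a heat-inducible partner of HSP70. It had 1246, 1045, 1057, 1204 and 1169.9 normalized counts in WT replicates 1 to 5 and between 606 and 969.5, with a median of 738, in Chd8L+/- libraries. The groups did not overlap, and in contrast to Hspa1a, WT replicate 2 was the lowest of the WT libraries. The spread was smaller than that of Hspa1a, with means of 1144 ± 89.6 (SD, n = 5) and 768 ± 153 (SD, n = 7), and the log2 fold change was -0.60 with a standard error of 0.14, or -0.63 without WT replicate 2. The Dnajb1 transcript shares no 75-base stretch with another annotated gene.

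Dnaja1, a J protein of the cytosol that also works with HSP70, had 4288, 3825, 3420.0, 3042 and 3255 normalized counts in WT replicates 1 to 5. It was between 2065 and 3696, with a median of 2482, in Chd8L+/- libraries. The groups overlapped: 5 of the 7 Chd8L+/- libraries lay below all WT libraries, and Chd8L+/- replicates 1 and 2, with 3238 and 3696, lay among them. The log2 fold change was -0.43 with a standard error of 0.16.

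Hsp90aa1, the stress-inducible cytosolic HSP90, had 3849, 5469, 2211, 2485 and 2756 normalized counts in WT replicates 1 to 5. In Chd8L+/- libraries it was between 2304 and 5016, with a median of 3129, inside the WT range. The means were close, 3354 ± 1336 (SD, n = 5) and 3390.3 ± 854 (SD, n = 7), and the log2 fold change was 0.06 with a standard error of 0.23. WT replicate 2 was again the highest of all libraries, and without it the log2 fold change was 0.26.

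Hspb1, the small heat shock protein HSP25, was close to the limit of detection. It had 7.11, 6.09, 14.1, 13.9 and 6.27 normalized counts in WT replicates 1 to 5 and between 4.55 and 26.2, with a median of 6.91, in Chd8L+/- libraries. These values rest on 5 to 25 reads per library, and a difference was not detectable at this depth.

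Hspd1 encodes HSP60, the mitochondrial chaperonin, and Hspe1 encodes HSP10, the lid of its ring. Hspd1 had 3325, 5739, 1352, 1616 and 2203 normalized counts in WT replicates 1 to 5 and between 2638 and 7332, with a median of 3915, in Chd8L+/- libraries. All 7 Chd8L+/- libraries lay above the WT median, but 6 of them lay below WT replicate 2. The log2 fold change was 0.71 with a standard error of 0.33, and 1.02 without WT replicate 2.

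Hspe1 had 707, 1479, 394, 365 and 1002 normalized counts in WT replicates 1 to 5 and between 581 and 1661, with a median of 1024, in Chd8L+/- libraries. The groups overlapped, with 5 of the 7 Chd8L+/- libraries above the WT median. The log2 fold change was 0.55 with a standard error of 0.35, and 0.82 without WT replicate 2. Although the genes share the stretch between them, the ratio of Hspd1 to Hspe1 ranged from 1.81 to 6.63 over the 12 libraries, a wider spread than that of Hspa1b to Hspa1a. Hspd1 and Hspe1 overlap on opposite strands, so reads of the shared end may have been counted for either.

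**Figure D2:**
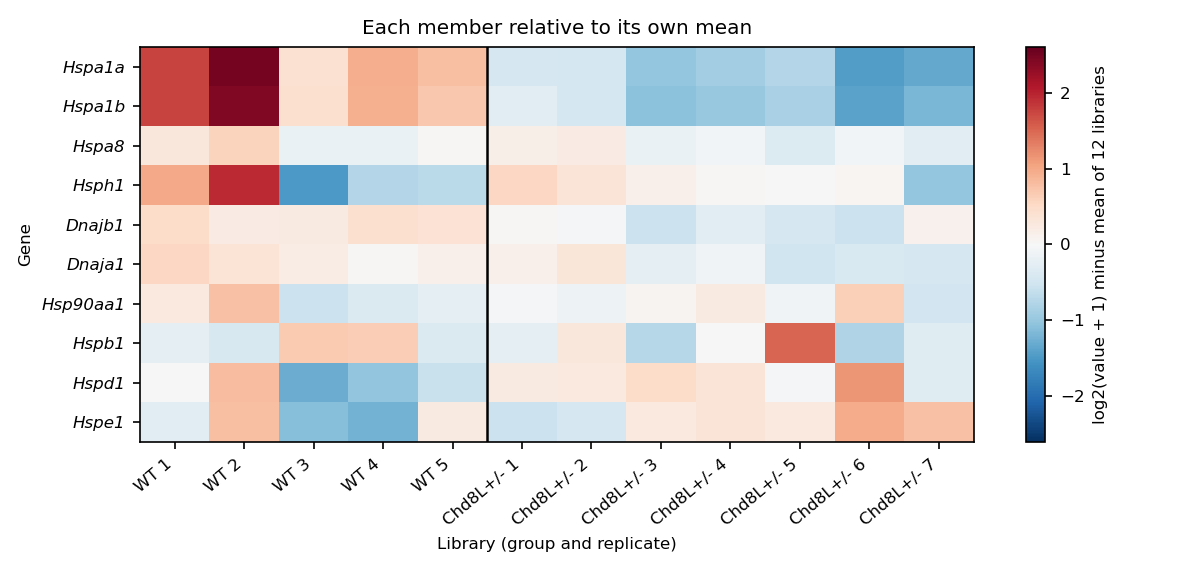
Difference of each member's log2(normalized count + 1) from its mean over the 12 libraries, with genes in rows, libraries in columns and a black line between WT and Chd8L+/- libraries. Hspa1a and Hspa1b are red in all 5 WT libraries, Hsph1, Hsp90aa1 and Hspd1 are red in WT replicate 2 and blue in WT replicates 3, 4 and 5, and Dnajb1 is red in all 5 WT libraries.

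Across the WT libraries, 7 of the 10 members were highest in replicate 2, and 8 were highest or second in replicate 2 and likewise in replicate 1. Dnajb1 and Hspb1, which were lowest in replicate 2, were the exceptions for that library. Across the Chd8L+/- libraries the order was less shared: replicates 1 and 2 each held the highest or second value of 6 members, and replicate 6 held the highest value of 3 members, Hsp90aa1, Hspd1 and Hspe1, and the lowest of Hspa1a and Hspa1b.

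The levels of the members were ordered per kilobase of transcript, as the mean over all 12 libraries. Hspa8 stood at 6294 ± 1253 (SD, n = 12) normalized counts per kilobase and was above the next gene in all 12 libraries. Hspd1, Hspe1, Hsp90aa1 and Dnaja1 followed with 1510.1, 1228, 1029 and 903 per kilobase. Hspd1 was above Hspe1 in 10 of 12 libraries. The last 3 were not separated, since Hspe1 was above Hsp90aa1 in 7 of 12 libraries and Hsp90aa1 above Dnaja1 in 6 of 12. Dnajb1 (309), Hsph1 (160), Hspa1b (124), Hspa1a (73.4) and Hspb1 (10.7) came last, with Hsph1 above Hspa1b in 8 of 12 libraries, namely all 7 Chd8L+/- libraries and WT replicate 2. These levels per kilobase depend on the transcript chosen and on reads shared with other copies.

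The library names hold a letter and a number, whose meaning is not given in the labels. Libraries of both genotypes existed for 4 of the numbers and 3 of the letters, with 1 to 3 libraries per genotype in each. The log2 difference of the sum of Hspa1a and Hspa1b between Chd8L+/- and WT libraries was -2.22, -2.03, -1.21 and -1.89 within the numbers 2, 3, 20 and 22. Within the letters A, B and C it was -3.11, -1.64 and -1.15. The sum was lower in Chd8L+/- libraries in each, and so was Dnajb1. This had to be so, because the groups of both did not overlap over all libraries, and only the sizes differ. For Dnajb1 the log2 differences were between -0.68 and -0.29 within numbers and between -0.85 and -0.42 within letters. Hspd1 was higher within all 4 numbers, by 0.24 to 1.25, but not within the letter A, where its log2 difference was -0.01. Hspe1 was lower within the numbers 2 and 3 and higher within 20 and 22. The number 3 also holds WT replicate 2, where Hspe1 was at 10.5 on that scale. Its other WT library, replicate 4, was at 8.52, below Chd8L+/- replicate 1 at 9.19.

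**Figure D3:**
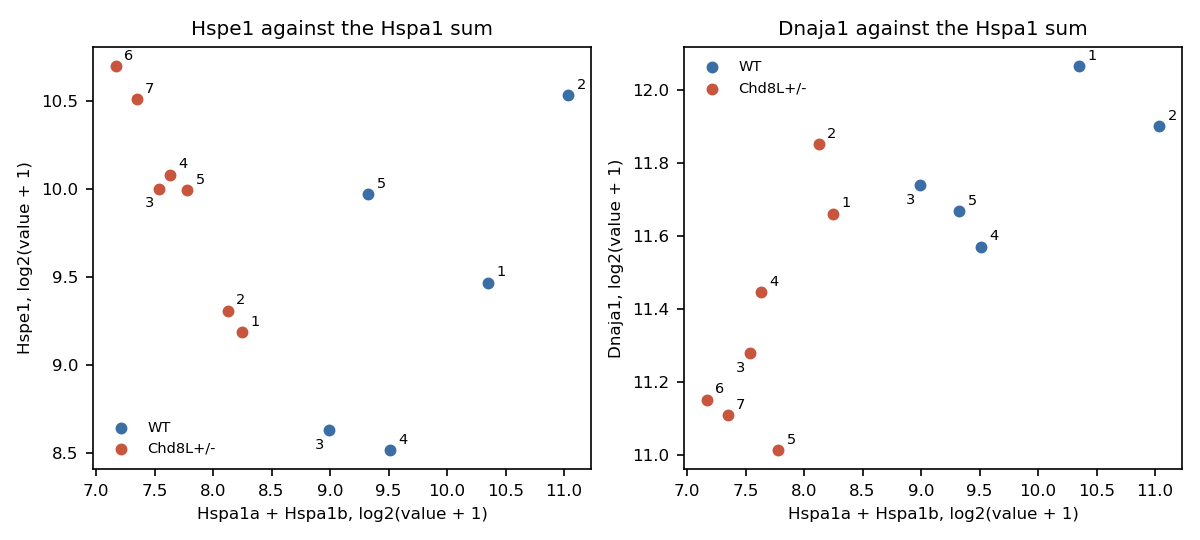
Log2(normalized count + 1) of Hspe1 (left) and Dnaja1 (right) against that of the sum of Hspa1a and Hspa1b, with 1 point per library labelled with its replicate number, WT in blue and Chd8L+/- in red. Within the 7 Chd8L+/- libraries Hspe1 falls from left to right (r = -0.98), and Dnaja1 is highest in replicates 1 and 2.

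Variation within a genotype was not used to choose the members. Over the 7 Chd8L+/- libraries, the log2 sum of Hspa1a and Hspa1b was compared with each of the other 8 members by a two-sided exact permutation test, in which the smallest possible p is 0.000397. Hspe1 had a Pearson's r of -0.98 (exact permutation p = 0.000595) and a Spearman's rho of -0.96 (exact permutation p = 0.00278), and r was -0.93 without Chd8L+/- replicates 1 and 2, the libraries farthest from the median of the sum. Of all 12808 genes tested, 15.1% had an exact p of 0.05 or less. Adjusted over these genes, the exact permutation p of Hspe1 was 0.141 for r and 0.239 for rho, so the relation did not pass. The lowest adjusted exact permutation p of any gene was 0.134 for r, and 0 genes passed. With 7 libraries, a gene at the smallest possible p could not pass this adjustment alone, so the outcome does not decide on the relation. An r at least as far from 0 was found for 10 of the 12808 genes, Hspe1 included. These also include Hspa1a and Hspa1b, which make up the sum. Dnaja1 had an r of 0.76 (exact permutation p = 0.05, or 0.331 adjusted over all genes) and a rho of 0.57 (exact permutation p = 0.2, or 0.669 adjusted), and its r was 0.09 without the same libraries, so that it rested on them. The other 6 relations had exact permutation p-values of 0.103 to 0.490 for r and 0.0881 to 0.498 for rho, and Hspb1, among them, was too low to enter the adjustment. None of the letters in the library names held 6 Chd8L+/- libraries, so the relation could not be computed within one, and the 5 WT libraries were too few for it.

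The genes most like the sum of Hspa1a and Hspa1b over all 12 libraries, by Pearson's r of log2(normalized count + 1), were Zfp689 (0.91), Spry4 (0.89), Tsc22d3 (0.85), 3632451O06Rik (0.83) and Herpud1 (0.82). Spry4 encodes an inhibitor of receptor tyrosine kinase signaling, Tsc22d3 a glucocorticoid-induced regulator and Herpud1 a protein of degradation at the endoplasmic reticulum. All 5 had lower means in Chd8L+/- libraries, so that these values hold the difference between genotypes as well as that between libraries. Over the 7 Chd8L+/- libraries alone, the genes most like the sum were Efhd2, Actb, Myl12b, Micalcl and Per2, all with an r of 0.99, of which Actb encodes cytoplasmic actin and Per2 a protein of the circadian clock. The 12-library list and the 7-library list had no gene in common, but over the 7 libraries the r of Herpud1 was 0.96, while that of Tsc22d3 was 0.67, that of Zfp689 0.45, that of 3632451O06Rik 0.43 and that of Spry4 0.32.

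Genes of the chaperone system beyond the members were compared from lists of their roles. The lists used held 128 such genes, heat shock factors and mitochondrial proteases included, of which 116 were tested. limma called 0 of these 116. At an unadjusted p of 0.05 or less by limma, 10 were lower and 12 higher, where 11.8% and 12.5% of all genes were. edgeR called 0 and DESeq2 called 4 of the 116, Hsbp1, Hspa2 and Ahsa2 as lower and Pdia6 as higher. DESeq2 called 4.58% of all genes lower and 1.83% higher. Of the 116, 41 were lower in Chd8L+/- libraries, where 48.6% of all genes were, and their median log2 fold change was 0.09, against 0.01 over all genes tested. Without WT replicate 2, limma called 33 of the 116, 9 lower and 24 higher, against 13.6% of all genes lower and 14.0% higher.

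Heat shock factors and their binding protein were mixed. Hsf1, the main transcription factor of the heat shock response, averaged 181 ± 62.2 normalized counts over WT (SD, n = 5) and 232 ± 21.8 over Chd8L+/- libraries (SD, n = 7), and its log2 fold change was 0.42 (adjusted p = 0.189 from limma). Hsf2, a related factor, averaged 115 ± 27.8 and 72.1 ± 17.8 (SD), with a log2 fold change of -0.67 (adjusted p = 0.125 from limma). Hsbp1, which binds heat shock factors, had a log2 fold change of -0.58 (adjusted p = 0.121 from limma). With all libraries limma called 0 of these genes and DESeq2 called Hsbp1. Without WT replicate 2, which led to calls for 27.6% of all genes, limma called all 3, and gave adjusted p-values of 0.00330 to 0.0153.

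In the other HSP70 genes, 8 of 9 tested had a higher and 1 a lower value in Chd8L+/- libraries, and the median log2 fold change was 0.19. The lower gene was Hspa2, a testis-enriched HSP70, with WT at 40.4 ± 11.3 (SD, n = 5), Chd8L+/- at 16.7 ± 10.9 normalized counts (SD, n = 7) and a log2 fold change of -1.39 (adjusted p = 0.121 from limma, though called by DESeq2), and the largest of the others was Hyou1, an HSP70 relative of the endoplasmic reticulum, with 0.61 (adjusted p = 0.160 from limma). The 40 other J proteins tested had 19 lower and 21 higher values and a median of 0.04, with Dnajb9 of the endoplasmic reticulum at -0.70 (adjusted p = 0.130 from limma) and Dnajc27 at 0.69 (adjusted p = 0.156 from limma). Of the 12 exchange factors and regulators of HSP70, 6 were lower and 6 higher, with Bag1 at -0.30 and Bag5 at -0.38 (adjusted p = 0.187 and 0.201 from limma). The 20 genes of HSP90 and its co-chaperones had 5 lower and 15 higher values, a median of 0.08, and values of -0.62 for Ahsa2, an activator of the HSP90 ATPase, -0.28 for Fkbp8, 0.45 for Hsp90b1, the HSP90 of the endoplasmic reticulum, and 0.53 for Trap1, the mitochondrial HSP90 (adjusted p between 0.121 and 0.189 from limma). Of the 9 other small heat shock proteins, 2 were tested, with 1 lower and 1 higher.

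The chaperones of the organelles were taken next. Some of them, such as Hyou1, Dnajb9, Hsp90b1 and Trap1, are also in the lists above, so these counts in part repeat those. Of 14 chaperones of the endoplasmic reticulum, 13 were higher and 7 of the 14 had an unadjusted p of 0.05 or less by limma, 6 of them higher, where 24.3% of all genes had such a p, and the median log2 fold change was 0.30. Among them were the disulfide isomerases Pdia6 (0.63, adjusted p = 0.122 from limma) and Pdia4 (0.58, adjusted p = 0.136) and the lectin chaperone Canx (0.46, adjusted p = 0.148), and the lower gene was Dnajb9. Of 15 other mitochondrial chaperones and proteases, 12 were higher, with a median of 0.22 and with the proteases Clpp at 0.45 and Lonp1 at 0.46 (adjusted p = 0.153 and 0.165 from limma). The cytosolic chaperonin TRiC and its helper prefoldin had 4 lower and 9 higher values of 13, a median of 0.09, which was -0.01 with the library number as a block, and Vbp1 at -0.34 (adjusted p = 0.193 from limma). With all libraries limma called 0 of these genes, and DESeq2 called Pdia6. Without WT replicate 2, limma called 6 of the 14 genes of the endoplasmic reticulum, 5 higher and 1 lower, and 5 of the 15 mitochondrial genes, all higher, against 27.6% of all genes in either direction.

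Of 26 genes besides the members that are commonly induced by heat, 24 were tested. Many of them, Ahsa2 included, are also in the chaperone lists above, so these counts in part repeat those. limma called 0 of them, and DESeq2 called Ahsa2 as lower, where it called 4.58% of all genes as lower. Without WT replicate 2, limma called 3 lower and 6 higher, against 13.6% and 14.0% of all genes. With all libraries, 11 were lower and 13 higher, with a median of 0.02 whose sign changed with the tool and block. They included Ahsa2 and Serpinh1, the collagen chaperone HSP47, with WT at 5.51 ± 8.11 (SD, n = 5), Chd8L+/- at 26.8 ± 30.7 normalized counts (SD, n = 7) and a log2 fold change of 2.42 (adjusted p = 0.131 from limma). Stromal and endothelial markers, the cells in which Serpinh1 is high, stood beside it: all 7 tested of 10 had higher means in Chd8L+/- libraries, their summed count was between 56.0 and 448 in WT and between 93.8 and 2142 in Chd8L+/- libraries, and their part in the result was not tested.

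**Figure D4:**
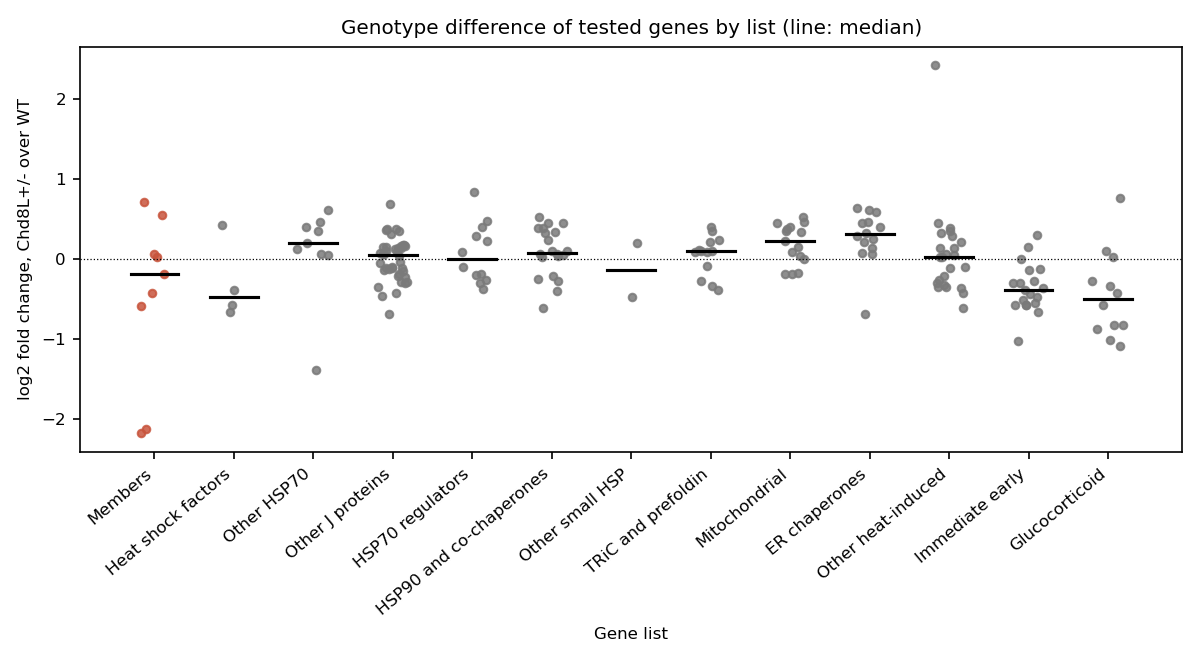
Log2 fold change (Chd8L+/- over WT) of each tested gene, with 1 point per gene, by list; members in red, other genes in grey and lines at list medians. Hspa1a and Hspa1b are the 2 lowest points of all lists, the endoplasmic reticulum list has its median at 0.30, and the immediate early and glucocorticoid lists have theirs at -0.40 and -0.51.

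Other genes that respond quickly to stimuli were examined beside the members. Of 21 immediate early genes, 19 were tested and 17 were lower in Chd8L+/- libraries, where 48.6% of all genes were. Of the 19, 5 had an unadjusted p of 0.05 or less by limma, all lower. Over all genes, 24.3% had such a p, and 11.8% had it and were lower. The median log2 fold change of the list was -0.40. The transcription factor Fos averaged 4552 ± 1820 normalized counts over WT (SD, n = 5) and 2310.0 ± 1069 over Chd8L+/- libraries (SD, n = 7), and its log2 fold change was -1.02 (adjusted p = 0.130 from limma), and the growth regulators Gadd45b and Btg2 had -0.66 and -0.57 (adjusted p = 0.122 and 0.128 from limma). Of 13 genes of the glucocorticoid response, 12 were tested and 9 were lower, against 48.6% of all genes, with a median of -0.51. Tsc22d3, at 1351 ± 156 in WT (SD, n = 5) against 734 ± 98.8 normalized counts (SD, n = 7) and with a log2 fold change of -0.88, was the only gene of all 154 pathway genes tested besides the members that limma called (adjusted p = 0.0375). Klf9 and Ddit4, further glucocorticoid-induced genes, had -0.84 and -0.83 (adjusted p = 0.121 from limma for both), and DESeq2 called both. These lists were chosen with Tsc22d3 and the HSP70 genes known to differ in these libraries, so their directions are not independent evidence.

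Markers of other cells of the preparation also had values that went with the genotypes. All 10 tuft cell markers, genes of the chemosensory cells of the epithelium, were lower in Chd8L+/- libraries at an unadjusted p of 0.05 or less by limma. Over all genes, 11.8% were lower at such a p. With all libraries limma called 0 of the 10 and DESeq2 called 9, where DESeq2 called 4.58% of all genes as lower. Without WT replicate 2 limma called 9, where it called 13.6% of all genes as lower. Their summed count was between 3051 and 29018 in WT and between 1694 and 12408 in Chd8L+/- libraries. Within WT, replicate 2 had the lowest tuft cell sum, 3051, and the highest sum of Hspa1a and Hspa1b. The tuft cell sum was not alone in this. That library also had the lowest WT sums of epithelial (167480), enterocyte (364442), immediate early (21630) and glucocorticoid genes (14192.5). It had the highest of myeloid (3313) and stromal markers (448), and neither extreme for goblet, Paneth and lymphocyte markers. Of 9 enterocyte markers, genes of the absorptive cells, 8 had lower means in Chd8L+/- libraries, the median log2 fold change was -0.53, or -0.76 without WT replicate 2, and limma called 0 and DESeq2 2 of them, Slc5a1 and Fabp1, named after their values were seen. Their summed count was between 364442 and 813058 in WT and between 299934 and 690916 in Chd8L+/- libraries. Of 10 lymphocyte markers 9 were lower, with a median of -0.23 and summed counts of 4843 to 8737 in WT and 3361 to 8853 in Chd8L+/- libraries. Goblet cell markers were lower in 5 of 6 and Paneth cell markers in 3 of 5, with medians of -0.08 and -0.35. All 8 myeloid markers were higher, with summed counts of 1264 to 3313 in WT and 1832 to 3989 in Chd8L+/- libraries, and none of these lists had a marker at 0 in all libraries. The part of these cells in the values of Hspa1a and Hspa1b was not tested.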

How the data were processed

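Poly(A) RNA of 12 mice was sequenced by the authors as 75-base single-end reads and mapped to mm10 with Tophat2, and per the labels DESeq2 was used. The deposited signal is the reads on a gene divided by the size factor of its library. The counting program, annotation and strand setting are not given in the sources used here. Values were whole multiples of 1 read (100% within 0.01, largest deviation 0.000147), so reads were recovered. The table holds 14244 genes, of which 21 have names turned into dates and 2 repeat a name, and none of these is named here. There were 0 columns of other samples. Nothing in the labels gives more than 1 library per mouse, and p-values measure the spread between these mice.

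Genotypes were compared with limma 3.58.1 in R 4.3.3 (trend, no block, all 12 libraries) on log2(value + 1) for the 12808 genes with a mean of at least 10, with Benjamini-Hochberg adjustment at 0.05. The fold change on this scale understates that of genes with few reads. Because the table held normalized values, the count tools, edgeR 4.0.16 and DESeq2 1.42.0, were run on recovered reads as alternatives, with the others given in the closing section. The fit was tested on simulated data. The standard error of the sum of Hspa1a and Hspa1b comes from a fit of that value alone. The correlations were planned with an adjustment over 8 relations and are given adjusted over all genes tested.

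The members and lists were chosen with earlier results of these data known. Genes named are the members, Chd8, in each pathway list up to 3 genes with the smallest p in each direction among those at an unadjusted p of 0.05 or less, and the 5 genes most like the Hspa1a and Hspa1b sum over 12 and over 7 libraries; 1 gene that the rule names is not reported here. Positions and transcripts come from GENCODE M21 (GRCm38), matched by symbol, with the principal transcript of the best support for lengths and for 75-base stretches shared with other transcripts. Promoters come from RefSeq (GRCm38.p6).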

Additional observations from a re-analysis of the deposited data

Results flagged for a closer look

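Among 22 groups tested, 1 held a library far from the rest: Hsph1 in Chd8L+/- replicate 7 was at 7.94 on the log2(value + 1) scale, or 245 normalized counts, while the other 6 Chd8L+/- libraries lay between 8.94 and 9.50. Chance alone gives such a distance in about 1 of 20 groups.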

How the results depend on the processing

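The log2 fold changes of Hspa1a, Hspa1b, Dnajb1, Dnaja1, Hspd1 and Hspe1 kept their sign under all 25 alternatives each. Their ranges were -2.40 to -1.88, -2.33 to -1.82, -0.68 to -0.51, -0.56 to -0.30, 0.50 to 1.02 and 0.24 to 0.82. That of the sum of Hspa1a and Hspa1b lay between -2.37 and -1.85 with each library left out. As the groups of Hspa1a, Hspa1b, their sum and Dnajb1 did not overlap, their sign could not change with a library left out or another pseudocount. For these, only the sizes are informative there. The sign of Hspa8 held under 24, of Hsp90aa1 under 21 and of Hsph1 under 15 of the 25. The number of genes called, by contrast, depended on the tool and the libraries. limma called 3 genes, 2 members and 1 other pathway gene. edgeR called 5 genes, and DESeq2 called 805 genes and 7 pathway genes. With the replicate block, limma called 0 genes, 0 members and 0 pathway genes, and the same counts of 0 were found with the library number as a block and after removal of trends with gene length and GC content. At an unadjusted p of 0.05 or less, these fits gave 2327, 2389 and 2995 genes, with 4, 4 and 6 members among them. With the library letter as a block limma called 451 genes and 8 pathway genes. With each library left out in turn, the counts ranged from 0 to 3533 genes, 0 to 4 members and 0 to 48 pathway genes, the highest of each without WT replicate 2. Added after the data had been seen, edgeR and DESeq2 without WT replicate 2 called 3369 and 4067 genes, 42 and 59 pathway genes, and 4 members each. The cause was not tested. With a pseudocount of 5, quantile normalization or any Chd8L+/- library left out, 0 relations with the sum of Hspa1a and Hspa1b passed. With 7 or fewer libraries a relation could not pass the adjustment over all genes alone, so this count of 0 shows no stability. The r of Hspe1 lay between -0.99 and -0.97 with each Chd8L+/- library left out. The replicate numbers share no known litter or day: same-numbered libraries of the genotypes had correlated deviations of 0.19, -0.34, -0.13, -0.17 and -0.23, 1 of the 5 WT libraries correlated best with its own number, and the numbers were not taken as pairs. Depth limits Hspb1, and reads shared with other annotated genes limit most members. Besides Hspa1a, Hspa1b and Hspa8, the share of 75-base stretches that occur in other genes was 57.7% for Hspb1 and 53.1% for Hsp90aa1. It was 33.7% for Hspd1, 29.1% for Hspe1 and 27.8% for Dnaja1, and 0 for Hsph1 and Dnajb1.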
